A study of Caenorhabditis elegans with 6 samples.

Results

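The nuclear-encoded subunits of oxidative phosphorylation were followed here as 37 named genes of respiratory complexes I to V and cytochrome c in the nematode Caenorhabditis elegans. Members were the rows of the deposited value table that the platform annotation gives exactly 1 gene symbol from that list, with the brightest row kept where a gene has several. Of the 37 genes 36 were found, each with 1 row, among 25478 genes measured in all; nuo-3 of complex I was not analysed here. Wild-type N2 hermaphrodites grew from the L1 to the L4 stage, 48 hours at 20 °C, on nematode growth medium with Escherichia coli OP50. The control group (3 arrays) had no addition, and the perchlorate group (3 arrays) had sodium perchlorate at 1 mg/mL in both agar and food. All animals carried the wild-type background, and no transgene, deletion or second agent is named. Growth notes naming the exposure are also attached to the controls, against their titles and treatment entries; the titles were followed. Nothing states that replicates came from separate cultures, so p-values reflect a spread between samples that may be technical.

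Oxidative phosphorylation passes electrons from NADH through complex I, or from succinate through complex II, to ubiquinone, then through complex III and cytochrome c to complex IV, where oxygen is reduced. Proton pumping along the way drives complex V, the ATP synthase. Most subunits are encoded in the nucleus and imported, a few are encoded in mitochondrial DNA, and in C. elegans mutants of nuo-6, isp-1 and mev-1 are known for altered lifespan. The mitochondrially encoded subunits were not analysed here.

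Values are log2 probe set levels. The 6 arrays had medians between 5.81 and 5.89 over 26192 tested rows, and the first principal component set perchlorate replicate 1 (47.7) apart from replicates 2 and 3 (12.2 and 13.1) and from the controls (-27.2 to -20). List medians, list counts and the differences of named genes were also taken without that array, and the values are given where one that is beyond 0.1 in size, or a count, differs by over 1.5 times.

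The subunit genes as a set stayed close to their control level. Of the 36 genes 17 lay above 0, beside 55.2% of all tested rows, and 19 below, and the median log2 difference of perchlorate minus control was -0.01, which is 0.996 times the control level, beside 0.03 over all tested rows. The differences ran from -0.33 in asb-2 to 0.33 in cyc-2.2. On single arrays the median of the set against the control mean was -0.03, 0.02 and -0.04 with perchlorate and 0.00, 0.00 and 0.00 in controls. No member passed in limma after Benjamini-Hochberg adjustment over all rows, with adjusted p between 0.235 and 0.987, where 0.00764% of all tested rows passed. At an unadjusted limma p under 0.05, 2 members were higher, beside 8.46% of all tested rows, and 3 were lower, beside 7.92%. These are 5.56% and 8.33% of the members, below and near the background shares. Without perchlorate replicate 1, 0 were higher and 1 lower, beside 7.03% and 7.24% of all tested rows, with 17 genes above 0 and 19 below as before. Without control replicate 1, control replicate 2 or perchlorate replicate 3, 0 were higher and 0 lower. Of all tested rows 5.08%, 5.77% and 8.09% were higher in these 3 fits, and 5.59%, 5.34% and 8.33% lower.

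The groups were separated on these arrays for 12 members. All perchlorate values lay above all control values in 4 genes, 11.1% of the members beside 12.8% of all tested rows, and below them in 8 genes, 22.2% beside 11.2%. Among 6411 protein-coding rows within the members' range of mean level the same shares were 19.9% and 18.4%. The members are bright: their mean levels ran from 8.02 to 12.77, and 32 of 36 lay above the 90th percentile of the tested rows. Their spread between replicates was small, with a median SD of 0.0426 in controls and 0.0726 with perchlorate, beside 0.0821 and 0.134 in protein-coding rows of that range. Those rows share the range but are not matched for level. Their median level lay at percentile 86.6 of the tested rows, beside 97.6 for the members.

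The intervals describe the size of each difference, gene by gene, given a spread between samples that may be technical. The 95% limma interval of the difference lay within 1.5-fold in either direction for 34 of 36 members, and within 1.2-fold for 6. The exceptions to the wider bound were cyc-2.2, whose interval ran from 0.06 to 0.60, and asb-2, whose interval ran from -0.61 to -0.05. Estimates themselves lay within 1.2-fold in 31 members and within 1.1-fold in 27. The limma prior used here gives all rows a common variance to shrink to, and with a prior that follows the mean level (trended and robust) the median SE of the members was 0.0696 in place of 0.106. With that prior 2 members were higher and 6 lower at an unadjusted p under 0.05, beside 9.25% and 8.87% of all rows, and 0 passed adjusted (smallest limma adjusted p = 0.073, cyc-2.2).

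**Figure D1:**
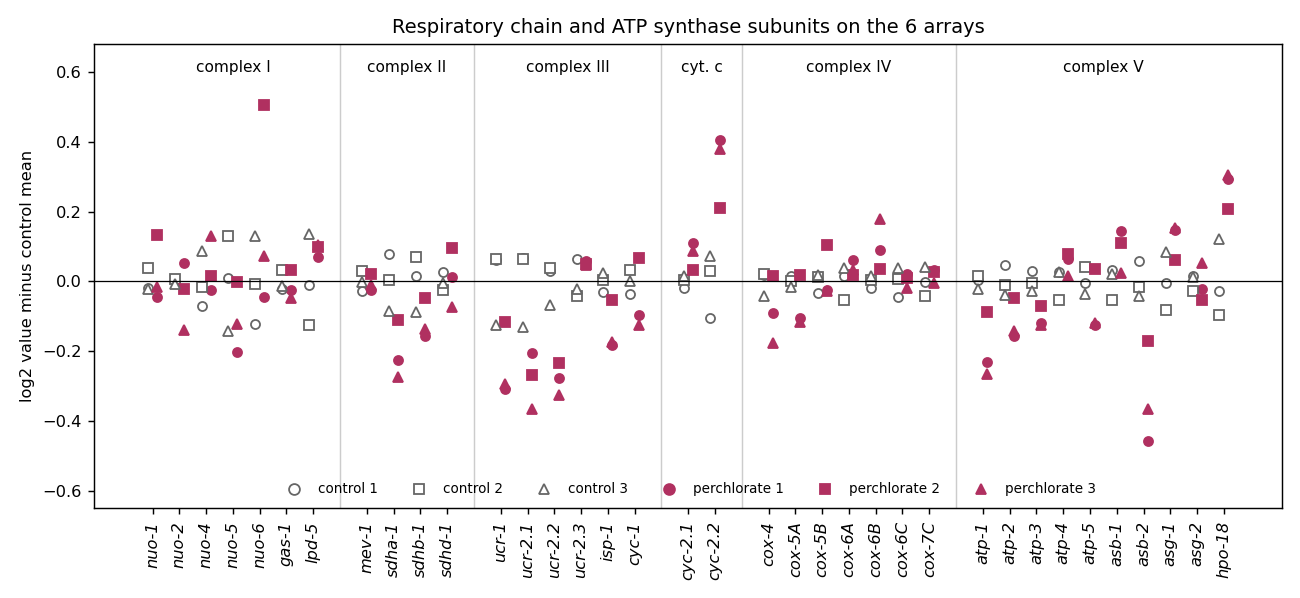
Each measured subunit gene on the 6 arrays, as the log2 value minus that gene's mean over the control arrays, ordered by complex; open symbols are controls, filled symbols perchlorate, and the symbol shape gives the replicate. Of the 108 perchlorate values 36 fall within the control range of their gene; all perchlorate values lie below all control values in 8 genes, ucr-2.1, ucr-2.2 and asb-2 among them, and above them in 4, cyc-2.2 and hpo-18 among them, and the groups overlap in the other 24.

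Complex I, the NADH dehydrogenase, showed no member at an unadjusted p under 0.05. Its 7 measured genes had a median log2 difference of 0.02, with 4 above 0 and 3 below, and for each of them the groups overlapped. The largest difference was in nuo-6, which encodes an accessory subunit of the membrane arm, orthologous to human NDUFB4. Its log2 level was 11.12, 11.23 and 11.37 in controls and 11.20, 11.75 and 11.31 with perchlorate. Only perchlorate replicate 2 stood above the controls. The difference was 0.18 (SE 0.168, limma adjusted p = 0.64), with 0.01 without perchlorate replicate 2 and 0.29 without perchlorate replicate 1.

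The peripheral arm of complex I carries the flavin and iron-sulfur centres. Its largest subunit, encoded by nuo-5 (human NDUFS1), was at 8.09, 8.21 and 7.94 in controls and 7.88, 8.08 and 7.96 with perchlorate. The groups overlapped, and the difference was -0.11 (SE 0.123, limma adjusted p = 0.701), or -0.06 without perchlorate replicate 1. The flavin-binding subunit gene nuo-1 differed by 0.02. The other peripheral arm genes nuo-2, gas-1, known from anaesthetic-sensitive mutants, and lpd-5 (human NDUFS4) differed by -0.04, -0.01 and 0.09, and nuo-4 (human NDUFA10) by 0.04. In gas-1 the values of all 6 arrays lay between 9.44 and 9.52.

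Complex II, succinate dehydrogenase, is also an enzyme of the citric acid cycle and has all its subunits encoded in the nucleus. The catalytic flavoprotein gene sdha-1 was at 9.50, 9.43 and 9.34 in controls and 9.20, 9.31 and 9.15 with perchlorate. All perchlorate values lay below all control values, by a narrow gap. The difference was -0.20 (SE 0.110, limma adjusted p = 0.404). The iron-sulfur subunit gene sdhb-1 was at 11.45, 11.51 and 11.35 in controls and 11.28, 11.39 and 11.30 with perchlorate, where the groups overlapped and the difference was -0.11 (SE 0.107, limma adjusted p = 0.641). The membrane anchor genes mev-1 and sdhd-1, which hold the complex in the inner membrane and bind ubiquinone, differed by 0.00 and 0.01. The median over the 4 genes was -0.06.

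Complex III, the cytochrome bc1 complex, had the lowest median of the complexes, -0.19 over 6 genes, which is 0.878 times the control level. It lay between -0.23 and -0.16 on leaving out any 1 array. Of the 6 genes 5 lay below 0, and 2 were lower at an unadjusted p under 0.05, 33.3% beside 7.92% of all tested rows. Both belong to the 3 paralogues of core protein 2, a matrix-facing subunit related to processing peptidases. The gene ucr-2.1 was at 10.70, 10.69 and 10.50 in controls and 10.42, 10.36 and 10.27 with perchlorate, and ucr-2.2 at 10.28, 10.29 and 10.18 in controls and 9.97, 10.01 and 9.92 with perchlorate. In both genes every perchlorate array lay below every control array, as in 3 of the 6 complex III genes, beside 11.2% of all tested rows. The difference was -0.28 (SE 0.115, unadjusted p = 0.0445, limma adjusted p = 0.292) in ucr-2.1 and -0.28 (SE 0.103, unadjusted p = 0.0303, limma adjusted p = 0.255) in ucr-2.2. Neither was under an unadjusted p of 0.05 without control replicate 1, control replicate 2 or perchlorate replicate 3. Without perchlorate replicate 1 only ucr-2.1 of the complex III genes was, beside 7.24% of all tested rows lower. Without perchlorate replicate 2 only ucr-2.2 was, beside 8.18%.

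The third core 2 paralogue, ucr-2.3, was at 9.65, 9.55 and 9.57 in controls and 9.65, 9.64 and 9.64 with perchlorate. Its groups overlapped, with a difference of 0.05 (SE 0.101, limma adjusted p = 0.835). The core protein 1 gene ucr-1 was at 11.56, 11.57 and 11.38 in controls and 11.20, 11.39 and 11.21 with perchlorate, a difference of -0.24 (SE 0.118, limma adjusted p = 0.363), and its control replicate 3 lay among the perchlorate arrays. The redox subunits had smaller differences: -0.14 in isp-1, the Rieske iron-sulfur protein, and -0.05 in cyc-1, cytochrome c1. In isp-1 all perchlorate values, 11.09, 11.22 and 11.10, lay below the control values of 11.25, 11.28 and 11.30.

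Cytochrome c, the mobile carrier between complexes III and IV, is encoded by cyc-2.1 and cyc-2.2. Both had all perchlorate values above all control values, beside 12.8% of all tested rows. The share was 19.9% in protein-coding rows within the members' range of mean level. In cyc-2.1 the levels were 12.23, 12.25 and 12.26 in controls and 12.36, 12.28 and 12.33 with perchlorate, a difference of 0.08 (SE 0.0997, limma adjusted p = 0.745). In cyc-2.2 they were 10.81, 10.94 and 10.99 in controls and 11.32, 11.12 and 11.29 with perchlorate. The cyc-2.2 difference of 0.33 (SE 0.115), or 1.26 times the control level, was the largest positive one among the members. It had an unadjusted p of 0.0233 and a limma adjusted p of 0.235.

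Complex IV, cytochrome c oxidase, had the narrowest range of differences among the 5 complexes. Its 7 nuclear-encoded subunits, which surround the mitochondrially encoded catalytic core, differed by -0.08 to 0.10, with a median of 0.02 and 5 of 7 above 0. The gene cox-6B, whose product faces the intermembrane space, was at 11.04, 11.06 and 11.07 in controls and 11.15, 11.09 and 11.24 with perchlorate. Its groups did not overlap, and the difference was 0.10 (SE 0.103, limma adjusted p = 0.666). The gene cox-4 was at 12.14, 12.14 and 12.08 in controls and 12.03, 12.13 and 11.94 with perchlorate, with overlap and a difference of -0.08 (SE 0.107, limma adjusted p = 0.741). The genes cox-5A, cox-5B, cox-6A, cox-6C and cox-7C differed by -0.07, 0.02, 0.04, 0.00 and 0.02. The 95% intervals of the complex IV genes lay between -0.34 and 0.34.

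**Figure D2:**
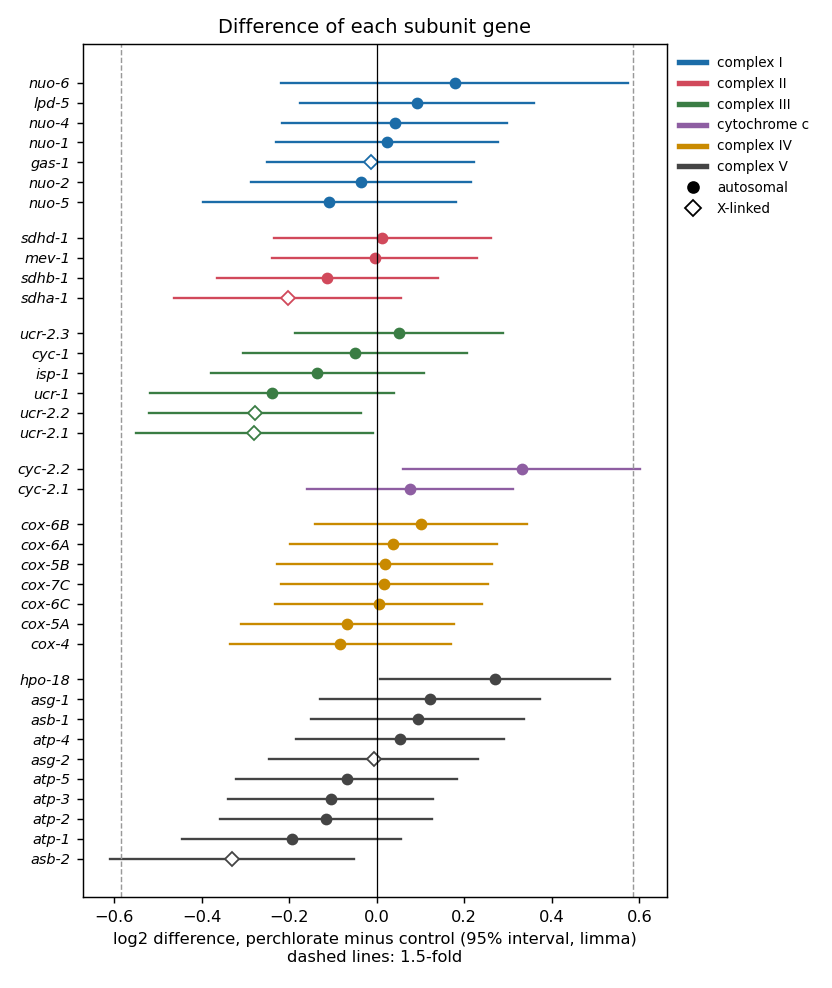
The log2 difference of each subunit gene, perchlorate minus control, with its 95% limma interval, by complex; diamonds mark X-linked genes, circles autosomal ones, and dashed lines a 1.5-fold change. The intervals of 34 of 36 genes lie within the dashed lines, and the X-linked genes all have estimates below 0.

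Complex V, the ATP synthase, had a median difference of -0.04 over 10 genes, with 4 above 0 and 6 below, and its members spread more widely than those of complex IV, from -0.33 to 0.27. The catalytic head is built of alpha and beta subunits, encoded by atp-1 and atp-2. The gene atp-1 was at 12.24, 12.26 and 12.22 in controls and 12.01, 12.15 and 11.98 with perchlorate, a difference of -0.19 (SE 0.106, limma adjusted p = 0.408). The gene atp-2 differed by -0.12 and atp-3, which encodes the stalk subunit known as OSCP, by -0.11. In these 3 genes every perchlorate array lay below every control array. The same held for 4 of the 10 complex V genes, beside 11.2% of all tested rows. The share was 18.4% in protein-coding rows within the members' range of mean level. The stalk genes atp-4 (coupling factor 6) and atp-5 (subunit d) differed by 0.05 and -0.07, with overlap.

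The gene hpo-18, orthologous to the small epsilon subunit at the base of the head, lay higher. Its levels were 11.42, 11.35 and 11.57 in controls and 11.74, 11.66 and 11.75 with perchlorate. All perchlorate values lay above all control values, with a difference of 0.27 (SE 0.111, unadjusted p = 0.0456, limma adjusted p = 0.293), or 1.21 times the control level. Subunits of the same enzyme, which are assembled in a fixed ratio, thus had differences of both signs, none of which passed after adjustment.

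The stalk subunit b is encoded by asb-1, known for expression in the germline, and by asb-2. The gene asb-2 was at 11.33, 11.25 and 11.23 in controls and 10.81, 11.10 and 10.90 with perchlorate. Every perchlorate array lay below every control array, with the lowest value in perchlorate replicate 1. The difference was -0.33 (SE 0.118, unadjusted p = 0.0263, limma adjusted p = 0.244), or 0.795 times the control level, and -0.27 without perchlorate replicate 1. The gene asb-1 was at 10.53, 10.44 and 10.52 in controls and 10.64, 10.61 and 10.52 with perchlorate. Its groups overlapped, and it differed by 0.09 (SE 0.103, limma adjusted p = 0.694).

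The membrane subunit g is encoded by asg-1 and asg-2. The gene asg-1 was at 10.94, 10.86 and 11.03 in controls and 11.09, 11.01 and 11.10 with perchlorate, a difference of 0.12 (SE 0.106, limma adjusted p = 0.612). The gene asg-2 was at 11.82, 11.77 and 11.81 in controls and 11.78, 11.75 and 11.86 with perchlorate, a difference of -0.01 (SE 0.101, limma adjusted p = 0.98). In both genes the groups overlapped.

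Paralogues were then set against each other within arrays, in 5 pairs. The pair of ucr-2.1 and ucr-2.2, which both differed by -0.28, was not taken, and both ucr pairs share ucr-2.3. The log2 ratio of asb-2 to asb-1 was 0.80, 0.81 and 0.71 in controls and 0.17, 0.49 and 0.38 with perchlorate, a change of -0.42. The ratio of ucr-2.1 to ucr-2.3 changed by -0.33 and that of ucr-2.2 to ucr-2.3 by -0.33, while the ratio of cyc-2.2 to cyc-2.1 changed by 0.26 and that of asg-2 to asg-1 by -0.13. In each of the 5 pairs taken the 3 perchlorate ratios lay on one side of the 3 control ratios. The exact two-sided permutation p is then 0.1 for each, adjusted p = 0.1 over the 5 pairs. This is the smallest p that 3 against 3 arrays allow, so no pair could pass the threshold of 0.05. Only the change of a ratio is read here, since probes of different genes have different affinities. Cross-hybridisation between paralogues was not tested.

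**Figure D3:**
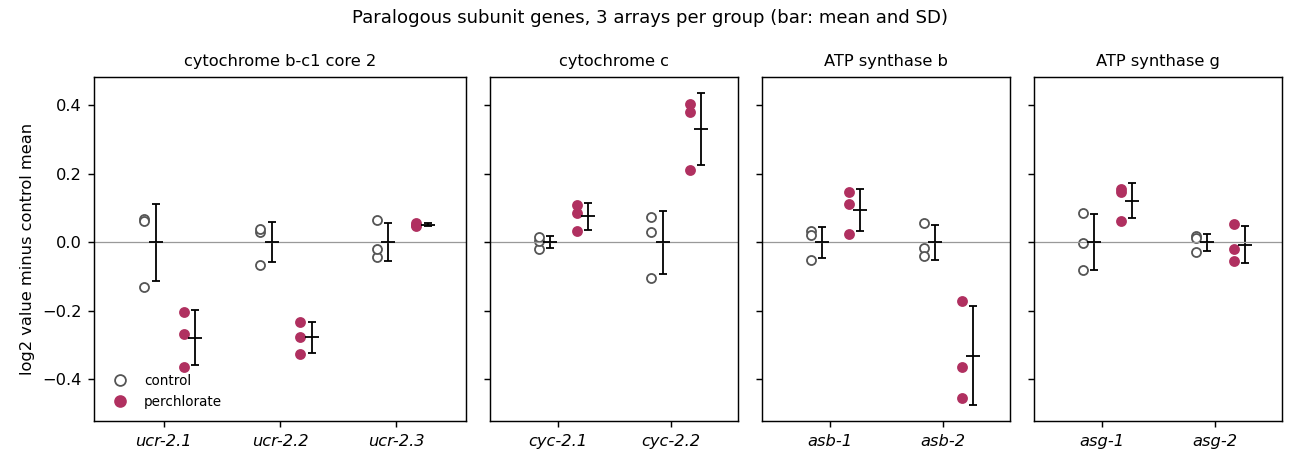
The paralogous subunit genes on the 6 arrays, as the log2 value minus the gene's control mean, with points for arrays and bars for the mean and SD (n = 3 each). The perchlorate values of ucr-2.1, ucr-2.2 and asb-2 sit below the controls, those of cyc-2.2 above them, and those of ucr-2.3, asb-1 and both asg genes overlap with them.

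The members lower at an unadjusted p under 0.05, ucr-2.1, ucr-2.2 and asb-2, share a position that the choice of members did not use: all 3 lie on the X chromosome. Of the 36 members 6 are X-linked, the others being sdha-1, gas-1 and asg-2, and all 6 had differences below 0, with a median of -0.24. Of the 30 autosomal members 13 lay below 0, with a median of 0.02. With the trended and robust prior sdha-1, ucr-1 and atp-1 were lower as well at an unadjusted p under 0.05. Among them ucr-1 and atp-1 are autosomal. The further subunits described next have 2 X-linked genes, R07E4.3 and mai-1, and both lay above 0 (0.28 and 0.02). Over all protein-coding rows, 53.7% of 2604 X-linked rows were below 0, with a median of -0.03, against 42.7% of 16231 autosomal rows, with a median of 0.05. Among protein-coding rows within the members' range of mean level, 69.4% of 582 X-linked rows were below 0, with a median of -0.16, against 45.5% of 5817 autosomal rows, with a median of 0.02. Of the X-linked rows in that range 27.8% were lower at an unadjusted p under 0.05, beside 9.39% of the autosomal rows. Rows in that range were in median dimmer than the members. No test set the 6 X-linked members apart from this background.

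Further subunits of the same complexes, mostly accessory subunits of complex I, were measured for 38 of 38 listed genes. Of these 27 lay above 0 and 11 below, with a median of 0.05. At an unadjusted p under 0.05, 3 were higher (7.89%, beside 8.46% of all tested rows) and 0 lower, and 0 passed adjusted; without perchlorate replicate 1, 1 was higher. The largest was ndab-2, an acyl carrier protein gene of complex I, with control arrays at 10.65 ± 0.149 and perchlorate arrays at 11 ± 0.134 (SD, n = 3 each), a difference of 0.35 (SE 0.131, limma adjusted p = 0.26). R07E4.3 and ndua-5, a complex I accessory gene, differed by 0.28 and 0.27. The 4 further complex III genes all lay above 0, with a median of 0.08, beside the -0.19 of the 6 complex III members. The inhibitor genes of the ATP synthase, mai-1 and mai-2, differed by 0.02 and 0.04.

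Genes whose products build the complexes had a higher median than the genes of the subunits. Of 18 measured assembly factor genes 17 lay above 0, with a median of 0.21, or 1.15 times the control level, and 7 were higher at an unadjusted p under 0.05, which is 38.9% of the list beside 8.46% of all tested rows; 0 were lower and 0 passed adjusted. Without perchlorate replicate 1, 18 lay above 0 and 2 were higher, beside 7.03% of all tested rows. The 3 with the smallest p serve cytochrome c oxidase, as do most genes of this list. The gene cox-19, of the copper delivery system, had a level of 9.22 ± 0.22 on control arrays and 9.62 ± 0.0505 on perchlorate arrays (SD, n = 3 each), a difference of 0.40 (SE 0.138, limma adjusted p = 0.228). The copper chaperone gene cox-17 differed by 0.34 (SE 0.120, limma adjusted p = 0.239) and coa-3 by 0.33 (SE 0.119, limma adjusted p = 0.25). In all 3 genes, which were picked for their small p, every perchlorate array lay above every control array. The same held for 10 of the 18 genes, 55.6% beside 12.8% of all tested rows. The median of the list against the control mean was 0.27, 0.22 and 0.22 on the perchlorate arrays and -0.04, -0.07 and 0.12 on the control arrays. Leaving out any 1 array left it between 0.17 and 0.27.

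Other lists of mitochondrial genes lay to either side of the subunits. Genes of mitochondrial ribosomal proteins had a median of 0.19, with 64 of 70 above 0, and 17 were higher (24.3%, beside 8.46% of all tested rows) and 0 lower (beside 7.92%) at an unadjusted p under 0.05. Those with the smallest p were mrpl-54, mrpl-18 and mrpl-21 (0.63, 0.57 and 0.41; limma adjusted p between 0.133 and 0.156). Of 15 citric acid cycle genes 12 lay below 0, with a median of -0.13, and 1 was higher and 3 lower, 6.67% and 20% of the list beside 8.46% and 7.92% of all tested rows. Without perchlorate replicate 1 these counts were 0 and 1, beside 7.03% and 7.24%. Those with the smallest p there encode subunits of succinyl-CoA ligase, whose product feeds complex II: sucl-1 differed by -0.41, suca-1 by -0.31 and sucg-1 by 0.32 (limma adjusted p between 0.188 and 0.248). The 8 ubiquinone synthesis genes had a median of 0.06, with 5 above 0 and 0 at an unadjusted p under 0.05; coq-5, coq-4 and coq-1 differed by 0.23, 0.24 and 0.17. Differences between these lists and the subunits were not tested.

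**Figure D4:**
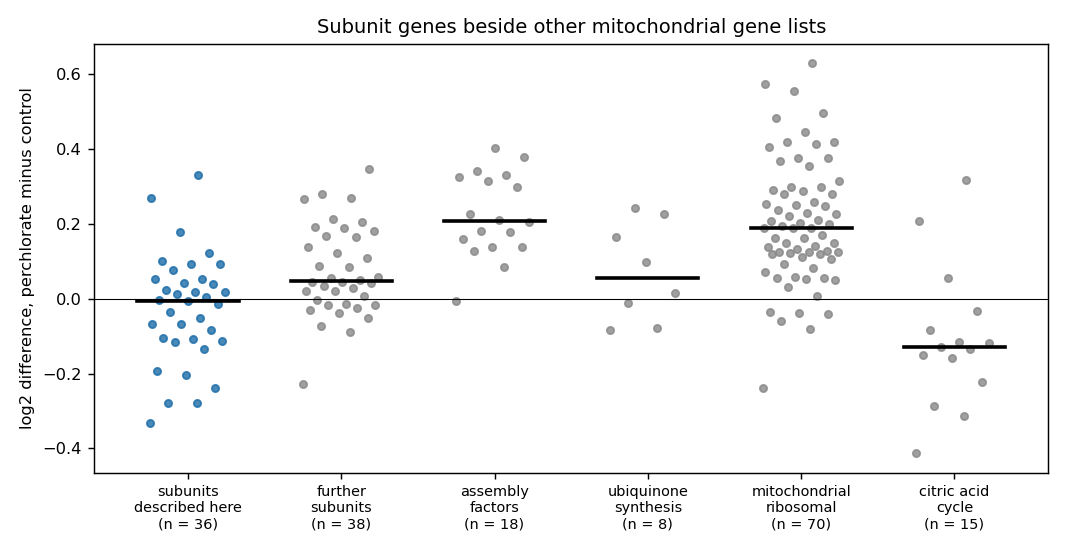
Log2 differences, perchlorate minus control, of the 36 subunit genes and of 5 other lists of mitochondrial genes; each point is a gene and each bar the list's median. The subunit genes centre on -0.01, the assembly factors on 0.21, the mitochondrial ribosomal protein genes on 0.19 and the citric acid cycle genes on -0.13.

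The RNA came from whole animals, in which a smaller share of a tissue and lower levels within its cells cannot be told apart. Markers of several tissues lay lower beside the lower subunit genes. Of 10 body wall muscle markers 10 lay below 0, with a median of -0.32 and 6 lower at an unadjusted p under 0.05, 60% beside 7.92% of all tested rows. Their summed level was 14.66 to 14.77 in controls and 14.37 to 14.55 with perchlorate, on the log2 scale of the sum. Of 9 measured intestine markers 8 lay below 0 (median -0.22; summed level 14.39 to 14.45 in controls and 14.27 to 14.37 with perchlorate), and of 7 epidermis markers 7 did (median -0.43; 12.30 to 12.52 and 11.46 to 11.83). Pharyngeal muscle and neuron markers lay below 0 in 4 of 6 and 8 of 10 (medians -0.27 and -0.15, the latter -0.10 without perchlorate replicate 1), with summed levels of 12.04 to 12.34 and 12.05 to 12.13 in controls and 11.92 to 12.16 and 11.89 to 12.01 with perchlorate. At an unadjusted p under 0.05, 3 intestine (33.3%) and 3 epidermis (42.9%) markers were lower and 0 higher. Lower were also 2 pharyngeal muscle (33.3%) and 2 neuron (20%) markers, and 1 of each was higher (16.7% and 10%). Over all tested rows 7.92% were lower and 8.46% higher. Without perchlorate replicate 1, 4 body wall muscle, 3 intestine, 3 epidermis, 2 neuron and 0 pharyngeal muscle markers were lower, beside 7.24% of all tested rows, and 1 pharyngeal muscle and 0 neuron markers were higher, beside 7.03%.

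Germline markers lay near their control level, and sperm markers varied between the perchlorate arrays. Of 10 germline markers 4 lay below 0 and 6 above, with a median of 0.05 and a summed level of 13.33 to 13.47 in controls and 13.28 to 13.46 with perchlorate. Of 9 sperm markers 3 lay below 0 (median 0.12; 11.77 to 11.82 and 11.75 to 11.99). On single perchlorate arrays the sperm median against the control mean was -0.06, -0.01 and 0.23. The median difference of the sperm markers was 0.05 without perchlorate replicate 3. Neither list had a member at an unadjusted p under 0.05. Every marker had a value, since array levels have no true 0; the dimmest, unc-31 of the neuron list, lay at the 45th percentile of the tested rows. The part of tissue markers in the differences of asb-2, the ucr-2 paralogues and the X-linked members was not tested.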

How the data were processed

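Trizol-extracted total RNA was converted to labelled cDNA, per the labels' protocols. The deposited values are log2 probe set levels; the submitters' processing notes name RMA and Affymetrix Expression Console. RMA corrects background, normalises quantiles and summarises probes. Tool versions and a genome build are not given in the sources used here. The table was used as deposited, without further normalisation or filter. Of 29317 rows, 25546 had 1 gene symbol, 646 several and 3125 none; the 26192 with a gene were tested. Compression of bright probe sets cannot be judged from summarised values.

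The 2 groups were compared with limma 3.58.1 in R 4.3.3 (lmFit and eBayes, two-sided, Benjamini-Hochberg over all tested rows, threshold 0.05), with 4 residual and 3.12 prior degrees of freedom. A count at an unadjusted p under 0.05 is a description beside the share of all tested rows. The number of arrays limits the precision. Chromosomes and current symbols came from the RefSeq table of assembly WBcel235; 20 further complex I genes listed by sequence name were matched through locus tags. On simulated data of 26192 rows the fit called 0% of log2 changes of 0.5, 67.2% of changes of 1 and 100% of changes of 2, and made 4 false calls.

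Members, lists and tests were chosen with earlier results of these data known. Named with full values were, in each complex, members at an unadjusted p under 0.05, or the 2 with the smallest p where fewer than 2 were, and all paralogues; atp-1, isp-1 and ucr-1 were added after their values were seen. In other lists the 3 genes with the smallest p were named, and the mai genes were added. No protein, promoter or probe sequence is printed. Alternatives were a replicate block, leaving out each array, renewed quantile normalisation, median centring, 2 filters on dim rows, all rows, a trended and robust prior, array weights, and the mean of all rows of a gene.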

Additional observations from a re-analysis of the deposited data

How the results depend on the processing

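No member passed after adjustment under any of 15 alternatives (smallest limma adjusted p = 0.073, cyc-2.2 with a trended and robust prior). In the simulation 0% of log2 changes of 0.5 were called, a size above that of every member's difference. Its changes were planted in rows drawn from all tested rows, whose median SE was 0.153, beside 0.106 for the members. The 0% is therefore not the share that would be called among the members. Over all tested rows 2 passed; 0 did with the replicate block, 1 with renewed quantile normalisation, with median centring or with all rows, 97 among rows above the median and 328 with the trended and robust prior, and 0 on leaving out any 1 array. Members at an unadjusted p under 0.05 were 2 higher and 3 lower, beside 8.46% and 7.92% of all tested rows. With the replicate block they were 0 and 0, beside 7.40% and 7.52%. Median centring gave 1 higher and 2 lower, beside 8.07% and 7.78%, and the trended prior 2 and 6, beside 9.25% and 8.87%. On leaving out 1 array 0 to 2 members were higher and 0 to 3 lower, beside 5.08% to 9.34% and 5.34% to 8.33% of all tested rows. Both counts were 0 without control replicate 1, control replicate 2 or perchlorate replicate 3; without perchlorate replicate 1 they were 0 and 1 (ucr-2.1), and without perchlorate replicate 2 they were 1 and 2. The median over the members lay between -0.03 and 0.00 on leaving out 1 array. Medians of complex I lay between -0.031 and 0.0575 and of complex IV between 0.000833 and 0.0292 on leaving out 1 array, the lowest without perchlorate replicate 2 in both; with renewed quantile normalisation complex IV was at 0.0371 and complex V at -0.000292, and the cause was not tested. Of the 16 genes named by rule, asg-2, at -0.01, changed sign, to 0.0358 with renewed quantile normalisation, 0.00133 without control replicate 1 and 0.0167 without perchlorate replicate 2; on leaving out 1 array it lay between -0.0373 and 0.0167. Same-numbered control and perchlorate arrays deviated with correlations of 0.03, -0.02 and -0.01, and differently numbered ones with correlations from -0.04 to 0.05. With 3 arrays per group this cannot decide whether the replicate numbers pair the samples.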

Other observations

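The highest of the 3 perchlorate values was on perchlorate replicate 2 in 21 of 36 subunit genes and the lowest on perchlorate replicate 3 in 17. In controls the highest value was on replicate 1, 2 and 3 in 11, 12 and 13 genes. The spread was larger with perchlorate than in controls in 22 of 36 (61.1%), beside 62.6% of all tested rows and 70.8% of protein-coding rows within the members' range of mean level.

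Adenine nucleotide carriers, which exchange ADP for ATP across the inner membrane, had a median log2 difference of 0.08 over 4 genes, with 0 at an unadjusted limma p under 0.05. The carrier ant-1.1 had a level of 12.80 ± 0.0291 on control arrays and 12.76 ± 0.0419 on perchlorate arrays (SD, n = 3 each). Its difference was -0.04 (SE 0.1, limma adjusted p = 0.859). The genes ant-1.3 and ant-1.2 differed by 0.11 and 0.24, or by 0.07 and 0.16 without perchlorate replicate 1. Both were dim, at percentiles 46.0 and 25.5 of the tested rows, and ant-1.2 had a control SD of 0.564.

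Of 11 genes of the mitochondrial unfolded protein response, which is set off when respiratory chain assembly is disturbed, 5 lay above 0 and 6 below, with a median of -0.08. The regulators dve-1 and atfs-1 differed by -0.71 (SE 0.131, limma adjusted p = 0.14) and -0.30 (SE 0.102, limma adjusted p = 0.225), and ubl-5 by 0.48 (SE 0.115, limma adjusted p = 0.152), each with groups that did not overlap. The gene dve-1 is X-linked. In the list 1 gene was higher and 2 lower at an unadjusted limma p under 0.05. These are 9.09% and 18.2%, beside 8.46% and 7.92% of all tested rows. All perchlorate values lay above all control values in 1 gene, beside 12.8% of all tested rows, and below them in 2, beside 11.2%. None of the 11 genes passed after adjustment over all rows.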
